A study of Homo sapiens with 4 samples.

Results

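The clustered histone genes were taken as every symbol in the count tables that starts with HIST1H, HIST2H, HIST3H or HIST4H, with 15 pseudogene symbols (ending in PS or in P and a number) left out. This gave 75 genes of 52402 different symbols: 6 linker histone H1 genes, 17 of class H2A, 23 of H2B, 14 of H3 and 15 of H4. A reference table calls 5 of the H2B members pseudogenes, and they were kept because the symbol rule does not remove them. On GRCh38, with gene positions from GENCODE 29, 55 members lie in a pair of blocks on chromosome 6 (34 between 25726132 and 26285638, 21 between 27125897 and 27893843), 15 HIST2 and 4 HIST3 genes lie on chromosome 1, and HIST4H4 lies on chromosome 12.

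RNA was sequenced from human ovarian cancer cultures labelled SKOV3 and OVCAR3, with epithelial given as the cell type. Each line was studied as mock control cells and as cells in which CRISPR-Cas9 was used against the envelope (env) gene of HERV-K119 (KO). HERV-K119 is an endogenous retrovirus, the remnant of an infection of the germ line that is now part of the human genome. Both mock and KO cells were transfected and, about 18 h later, received 100 µg/mL hygromycin for 2 days. Each of the 4 groups (mock and KO, in both lines) holds 1 library, so a difference between KO and mock in a line has no replicates behind it. The labels do not say whether KO cells were a clone or a pool, or what the mock cells were transfected with. The design asks which transcripts differ between KO and mock cells.

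Core histones H2A, H2B, H3 and H4 form the protein octamer around which DNA is wrapped, and H1 binds the linker DNA between octamers. Most clustered histone genes are transcribed in S phase, when new DNA is packed, and their messages end in a conserved stem-loop in place of a poly(A) tail. SLBP binds that stem-loop, the U7 small nuclear RNP directs the cut after it, and NPAT is the transcription coactivator of the clusters. Some clustered histone genes can also give longer, polyadenylated messages, mainly in cells that have stopped dividing, and these are the form that a poly(A)-selected library captures best. The labels do not say whether these libraries were poly(A)-selected or depleted of ribosomal RNA.

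The stem-loop is shown because it sets these genes apart from almost all others and because the results below are described by the 3′ end of each gene. Its consensus lay within 100 bases after the stop codon in 32 of the 36 members whose GENCODE 29 protein-coding models hold a 3′ untranslated region. The models of 34 other coding members stop at the coding end, so nothing can be read from them. Over all genes with a full window of that length, 28 of 18265 (0.153%) held the consensus, and 27 of the 28 were members. Read 5′ to 3′ on the gene's strand, with the stem in capitals and the loop in lower case, the forms were as follows, each with the genes that carry it.
HIST1H2AC, HIST2H2BF, HIST2H2BE, HIST1H2BN, HIST3H2A and 12 others: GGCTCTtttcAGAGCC
HIST1H2BD, HIST1H2BC and 3 others: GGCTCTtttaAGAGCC
HIST1H4B, HIST1H4E, HIST1H4H, HIST1H4J and HIST4H4: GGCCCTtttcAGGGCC
HIST1H4I and HIST2H4A with its near copy HIST2H4B: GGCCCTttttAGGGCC
HIST1H2AG: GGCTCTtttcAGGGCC
HIST1H3E: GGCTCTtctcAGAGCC

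All H4 genes found here carry the stem shown for HIST1H4B, and all H2A, H2B and H3 genes the stem shown for HIST1H2AC, apart from HIST1H2AG. That gene has the left arm of HIST1H2AC and the right arm of HIST1H4B. The hexamer AATAAA, the usual signal for adding a poly(A) tail, was present in the last 50 bases of at least 1 transcript model of 24 members, 20 of which also held the stem-loop. For comparison, 13740 of 19669 protein-coding genes (69.9%) held it there.

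The genes of a core class encode the same or similar proteins, mostly with different bases. Where the bases differ, reads can be assigned to single genes. Not every member can be told apart in this way, as given below for HIST1H3D, HIST1H2AM and HIST1H2BK. Of the 15 H4 genes, 14 encode 1 and the same protein, while the median identity of their coding bases over pairs of equal length was 83.8%. The H3 genes gave 3 different proteins from 14 members (10 share one), the 17 H2A genes 11, the 18 coding H2B genes 14, and the 6 H1 genes 6. The first 60 coding bases of the 4 H4 genes with the most counts show this, with the 16 positions at which they differ in capitals. All 4 encode the same peptide there.
HIST1H4B: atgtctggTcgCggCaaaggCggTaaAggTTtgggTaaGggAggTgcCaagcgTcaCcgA
HIST1H4C: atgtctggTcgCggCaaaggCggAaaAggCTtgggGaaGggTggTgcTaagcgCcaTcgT
HIST1H4E: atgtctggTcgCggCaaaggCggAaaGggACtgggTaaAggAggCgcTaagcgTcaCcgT
HIST1H4H: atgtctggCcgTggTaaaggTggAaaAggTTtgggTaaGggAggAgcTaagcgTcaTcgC

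Total counts per library were between 15145483 and 22057693, and levels are given as CPM, the read count of a gene relative to the TMM-scaled size of its library. A gene without counts may still have had up to 3, equal to between 0.133 and 0.204 CPM. OVCAR3 KO stood apart from the other 3 libraries before any histone gene was read: mitochondrially encoded genes took 21.9% of its counts against 5.16% to 5.93%, and NEAT1, a nuclear long non-coding RNA, had 1610 CPM against 142 to 446. The epithelial markers were present in all 4 libraries, with EPCAM between 268 and 352 CPM. The fibroblast markers COL3A1 and LUM and the leukocyte markers PTPRC and CD3E had no count in any of them. Other genes of these lists were counted, with COL1A1 between 17.4 and 35.0 CPM and CD68 between 8.21 and 35.4 CPM. The line labels were not borne out by every gene known to separate these lines: CDKN2A, which is known to be deleted in SKOV3, had 90.6 and 91.2 CPM in the libraries labelled SKOV3. ERBB2, known to be amplified in SKOV3, had 58.5 CPM in SKOV3 mock and 73.3 in OVCAR3 mock, and VIM was at 2.35 CPM or less in all 4. WT1, an ovarian marker also looked at, had no count in any of the 4. MUC16, the CA125 gene known from OVCAR3, went with the labels, with 1 count in SKOV3 mock and 45 in OVCAR3 mock, though the latter is only 2.74 CPM. For that reason the lines are called SKOV3-labelled and OVCAR3-labelled. In bulk RNA, fewer cells in S phase and less histone RNA per cell cannot be told apart. The HERV-K119 provirus itself was not analysed here.

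Of the 75 members, 20 had no count in any library (2 of H1, 2 of H2A, 7 of H2B, 5 of H3 and 4 of H4), and 22 others had between 1 and 19 counts summed over the 4 libraries. A gene was called measured in a line if it reached 1 CPM in the KO or the mock library. That left 27 members in the SKOV3-labelled pair and 24 in the OVCAR3-labelled pair, 28 in at least 1 of them. Counts of 0 do not show that a gene is silent, since neither the capture of tailless messages nor the counting of reads that fit several genes is known here. Shared sequence was measured with 50-base words from the transcripts: in the 20 members without counts a median of 100% of the words occurred in no other gene, and 2 of the 20 shared all of their words, against a median of 95.2% and 6 of 55 in the members with counts.

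In the SKOV3-labelled pair the core histone classes were higher in KO than in mock cells, while H1 was level. Ratios are log2 of KO over mock with a prior count of 2, and brackets give the exact 95% interval of the ratio of counts, which covers counting error only. Summed over all 75 members, CPM went from 120 in mock to 147 in KO, a log2 ratio of 0.29 (0.21 to 0.37). The 4 core classes together, 83.3 and 110 CPM, gave 0.40 (0.31 to 0.50). By class the core ratios were close to each other: 0.35 (0.14 to 0.55) for H2A, 0.40 (0.27 to 0.53) for H2B, 0.33 (-0.03 to 0.70) for H3 and 0.50 (0.27 to 0.75) for H4. H1 stood at 36.8 CPM in mock and 36.7 in KO, with an interval from -0.16 to 0.15 that does not overlap that of H2B or H4. The share of H1 in all histone counts was 30.6% (28.9 to 32.4, exact binomial) in mock and 25% (23.3 to 26.8) in KO.

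In the OVCAR3-labelled pair H1, H2A and H2B were lower in KO than in mock cells, and H1 was the class with the largest difference. H1 had 714 counts in mock and 193 in KO, 43.5 and 13.1 CPM, a log2 ratio of -1.72 (-1.97 to -1.50). The H2B sum was 986 counts in mock and 594 in KO, -0.57 (-0.72 to -0.43), and the H2A sum was 21.5 and 17.0 CPM, -0.34 (-0.58 to -0.10). H3, with only 73 and 64 counts, gave -0.03 (-0.54 to 0.47), so a difference was not detectable at this depth. H4 was the 1 class with a higher sum in KO, 7.06 and 9.77 CPM, 0.46 (0.11 to 0.83), with 0.18 to 0.53 under other scalings. That direction rested on HIST1H4B: without it the other 14 H4 genes gave -0.21 (-0.70 to 0.26). The H1 share of histone counts went from 31.8% (29.9 to 33.8) to 15.5% (13.5 to 17.6), and the H4 share from 5.17% (4.29 to 6.17) to 11.6% (9.84 to 13.5).

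**Figure D1:**
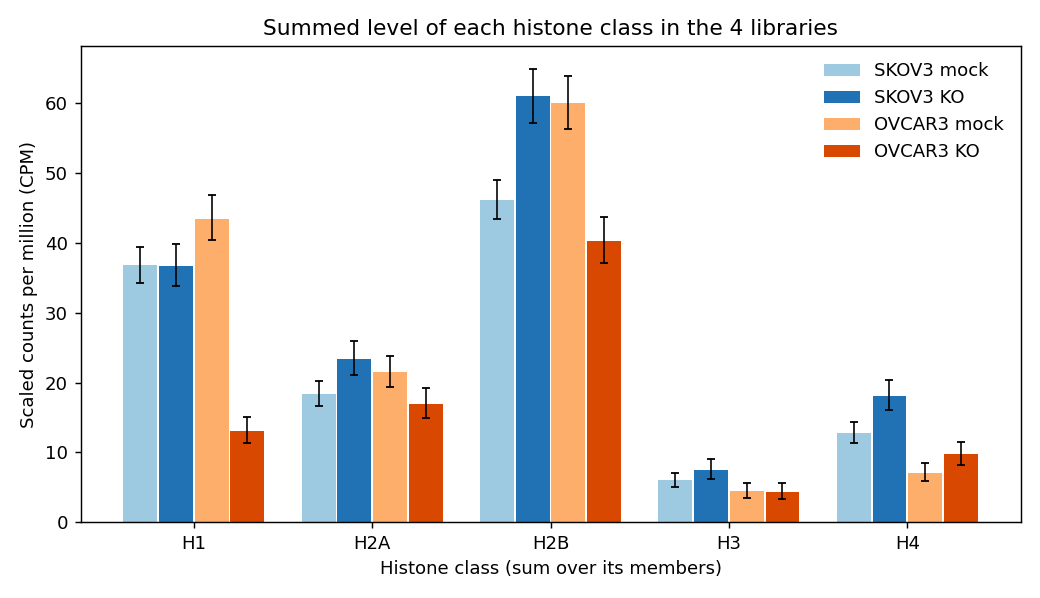
Summed level of each histone class, in scaled CPM, in the 4 libraries; each bar is 1 library and the error bars are exact 95% Poisson intervals of the counts. H1 is level in the SKOV3-labelled pair (36.8 and 36.7 CPM) and differs most in the OVCAR3-labelled pair (43.5 and 13.1 CPM), while the H4 sum is higher in KO in both pairs, in the OVCAR3-labelled one through HIST1H4B.

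Read one by one, the members were mostly above 0 in 1 line and mostly below 0 in the other. In the SKOV3-labelled pair 24 of 27 measured members had a ratio above 0, with a median of 0.42 and a range of -0.25 to 1.99. In each pair some members reached 1 CPM in only 1 library, which favours a ratio toward that library. Among members with at least 100 counts in the pair, the median was 0.32 over 10 in the SKOV3-labelled pair. It was -1.07 over 9 in the OVCAR3-labelled pair. Over all 13524 measured genes 51.1% were above 0, with a median of 0.01. In the OVCAR3-labelled pair 20 of 24 members were below 0, with a median of -0.53 and a range of -2.31 to 1.51. The median was 0.16 over all 15560 measured genes, of which 56.2% were above 0, and -0.02 over the 12544 protein-coding ones. With a spline trend on GC content and length removed, the member median was -1.19.

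A size rule was used in place of a test, a ratio of at least 2-fold in a measured gene. It called 4 of the 27 members higher in SKOV3 KO (14.8%, where the background over all measured genes was 0.799%) and 0 lower (background 0.739%). These 4, HIST1H2BO, HIST1H3J, HIST1H4A and HIST3H2BB, are outside the rule for named genes and are given because the count is small. All of them had 22 counts or fewer in either library, and with a minimum of 5 CPM the count was 0. In mock they had 0.266 to 0.487 CPM, so they counted as measured only through KO, where they were high. The background was not matched for depth, so the 14.8% cannot be read as an excess of called members. By the counting interval, 8 members lay wholly above 0 (29.6%, background 17.6%) and 0 wholly below it (background 18.1%).

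In the OVCAR3-labelled pair the size rule called 9 of 24 members lower (37.5%, background 15.4%) and 1 higher (4.17%, background 22.5%). By the counting interval, 10 lay below 0 (41.7%, background 34.9%) and 1 above (background 44.8%). The share wholly below 0 is near that of all genes. The spread of the 2 pairs was also unlike: over genes with more than 100 counts the standard deviation of the log2 ratio was 0.23 in the SKOV3-labelled pair and 1.07 in the other. With a minimum of 5 CPM, 5 of 9 members were lower by the rule, and with the GC and length trend removed 13 of 24.

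**Figure D2:**
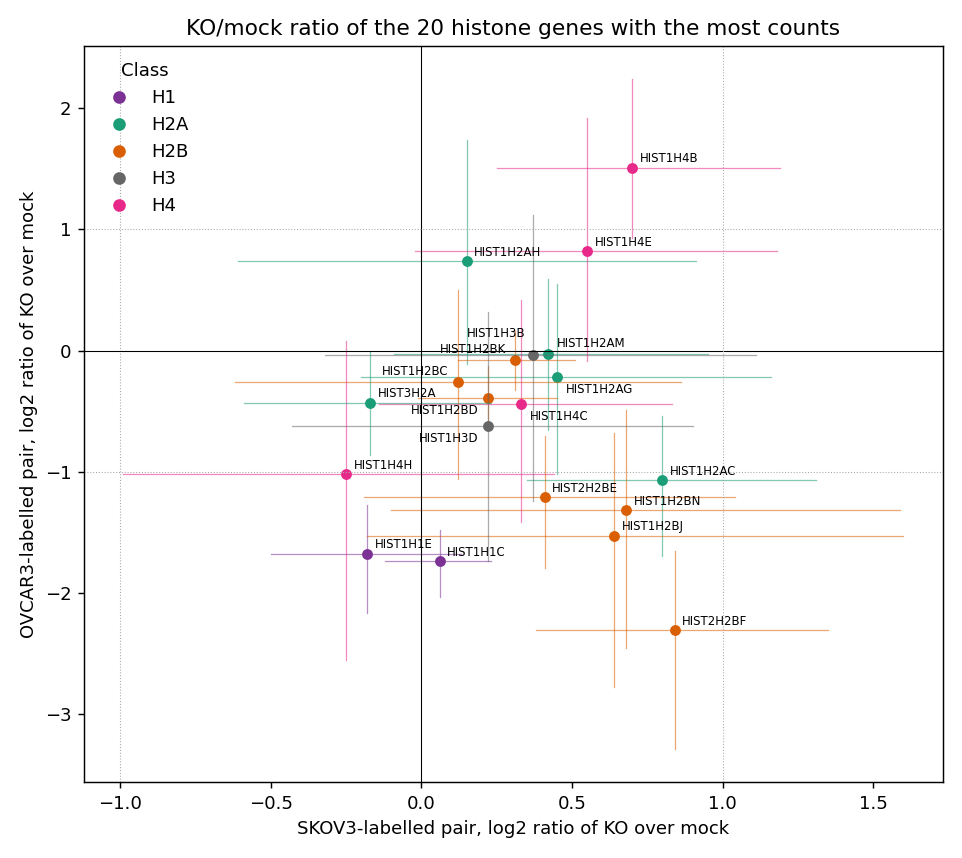
KO/mock log2 ratio of the 20 members with the most counts, the SKOV3-labelled pair on the horizontal and the OVCAR3-labelled pair on the vertical axis; lines are exact 95% counting intervals, colours are classes and dotted lines mark a 2-fold ratio. HIST1H4B, HIST1H4E and HIST1H2AH lie above 0 in both pairs, and of these only HIST1H4B has both intervals above 0. HIST2H2BF (0.84 and -2.31) lies farthest down, and HIST1H1C and HIST1H1E lie low in the OVCAR3-labelled pair alone.

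Counts of the clustered H1 genes came almost wholly from HIST1H1C and HIST1H1E (H1.2 and H1.4), of which HIST1H1C took between 70.5% and 76.3% of the class's counts in every library. HIST1H1C (chromosome 6, 26055787 to 26056428, minus strand) had 609 counts in SKOV3 mock, 442 in SKOV3 KO, 512 in OVCAR3 mock and 136 in OVCAR3 KO, which is 27.0, 28.0, 31.2 and 9.23 CPM. The first 3 libraries were within a narrow band and OVCAR3 KO was low, with ratios of 0.06 (-0.12 to 0.23) and -1.74 (-2.04 to -1.48).
HIST1H1E (chromosome 6, 26156354 to 26157107, plus strand) was likewise highest in OVCAR3 mock and lowest in OVCAR3 KO, at 9.79, 8.63, 12.2 and 3.73 CPM, with ratios of -0.18 (-0.50 to 0.13) and -1.68 (-2.17 to -1.28). HIST1H1B and HIST1H1D, which encode H1.5 and H1.3, had no count in any library. The unclustered linker genes, whose messages are polyadenylated, were also lower in KO in the OVCAR3-labelled pair: H1F0, the H1.0 gene, had 1210 CPM in mock and 385 in KO, -1.65 (-1.69 to -1.60), and H1FX, the H1.10 gene, had 303 and 46.7 CPM, -2.69 (-2.81 to -2.58). In the SKOV3-labelled pair both were nearly level, -0.07 (-0.11 to -0.04) and -0.11 (-0.18 to -0.04).

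Among H2A genes, HIST1H2AC was the member that went most clearly both ways. It had 67, 83, 89 and 37 counts in SKOV3 mock, SKOV3 KO, OVCAR3 mock and OVCAR3 KO, or 2.97, 5.26, 5.42 and 2.51 CPM. SKOV3 KO and OVCAR3 mock were thus about equally high, and the ratios were 0.80 (0.35 to 1.31) and -1.07 (-1.70 to -0.54). HIST3H2A (chromosome 1, 228456979 to 228457873), the H2A gene with the most counts, had 6.02, 5.33, 7.24 and 5.36 CPM, which gave -0.17 (-0.59 to 0.23) and -0.43 (-0.86 to -0.01).
HIST1H2AG, at 2.07 and 1.76 CPM in the OVCAR3-labelled pair, gave 0.45 (-0.20 to 1.16) and -0.22 (-1.02 to 0.55), and HIST1H2AH gave 0.15 (-0.61 to 0.91) and 0.74 (-0.11 to 1.74), so neither differed beyond counting error. HIST1H2AM gave 0.42 and -0.03, but 86.3% of its 50-base words lie in HIST1H3J, a gene that overlaps it in the annotation, so its counts cannot be assigned to it alone.

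H2B held members that hardly differed between KO and mock as well as the member with the lowest OVCAR3-labelled ratio. HIST1H2BK had 20.9, 25.9, 18.1 and 17.0 CPM, with ratios of 0.31 (0.12 to 0.51) and -0.08 (-0.33 to 0.16). Only 25.9% of its 50-base words occur in no other gene, since 61.4% are shared with H2BFS, so its level is uncertain. HIST1H2BD had 338, 275, 292 and 199 counts, with ratios of 0.22 (-0.01 to 0.45) and -0.39 (-0.66 to -0.13).
HIST2H2BF (chromosome 1, 149782689 to 149812373, minus strand) had 66, 84, 96 and 16 counts, or 2.92, 5.33, 5.84 and 1.09 CPM. It was again high in SKOV3 KO and OVCAR3 mock and lowest in OVCAR3 KO, with ratios of 0.84 (0.38 to 1.35) and -2.31 (-3.29 to -1.66). HIST2H2BE (chromosome 1, 149884459 to 149886652, minus strand), whose long polyadenylated message is known from differentiated cells, had 2.17, 2.92, 6.57 and 2.78 CPM. Here OVCAR3 mock stood out from the other 3 libraries. Its ratios were 0.41 (-0.19 to 1.04) and -1.21 (-1.80 to -0.71), and OVCAR3 mock over SKOV3 mock gave 1.55 (1.10 to 2.12).
HIST1H2BN and HIST1H2BJ, at 2.37 CPM each in OVCAR3 mock, were lower in OVCAR3 KO at 0.882 and 0.747 CPM, with ratios of -1.32 (-2.46 to -0.49) and -1.53 (-2.78 to -0.68). HIST1H2BC gave 0.12 (-0.62 to 0.86) and -0.26 (-1.06 to 0.50).

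H3 was the class with the fewest counts, and no H3 gene could be read alone with confidence. HIST1H3B had 37, 34, 15 and 13 counts, with ratios of 0.37 (-0.32 to 1.11) and -0.04 (-1.24 to 1.12). HIST1H3D had 45, 37, 25 and 14 counts, with 0.22 and -0.62, but none of its 50-base words is its own, as they all lie in the overlapping gene AL031777.3.

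H4 was where single genes parted from their class. HIST1H4B (chromosome 6, 26026815 to 26027252, minus strand) had 74, 85, 29 and 77 counts, or 3.28, 5.39, 1.77 and 5.23 CPM. Both KO libraries lay above both mock libraries, with ratios of 0.70 (0.25 to 1.19) and 1.51 (0.93 to 2.24). It was the 1 member past the size rule upward in the OVCAR3-labelled pair, and a spline trend on GC content and length, fitted over protein-coding genes, brought that ratio to 0.77.
Its share of H4 counts was 25% in OVCAR3 mock and 53.5% in OVCAR3 KO, against 25.7% and 29.7% in the SKOV3-labelled pair. HIST1H4E had 2.13, 3.17, 0.913 and 1.70 CPM, also higher in both KO libraries, but with intervals that reach 0 (-0.02 to 1.18 and -0.09 to 1.92). HIST1H4C, with 28 and 18 counts in the OVCAR3-labelled pair, gave 0.33 (-0.14 to 0.83) and -0.44 (-1.42 to 0.42).
HIST1H4H had 48, 28, 20 and 8 counts, with ratios of -0.25 (-0.99 to 0.44) and -1.02 (-2.56 to 0.08). Thus 4 genes for 1 protein gave OVCAR3-labelled ratios from -1.02 to 1.51. Between the mock libraries, the H4 and H3 sums were lower in OVCAR3 than in SKOV3, log2 ratios of -0.84 (-1.18 to -0.54) and -0.42 (-0.86 to -0.01), while H1, H2A and H2B were between 0.22 and 0.38 higher.

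**Figure D3:**
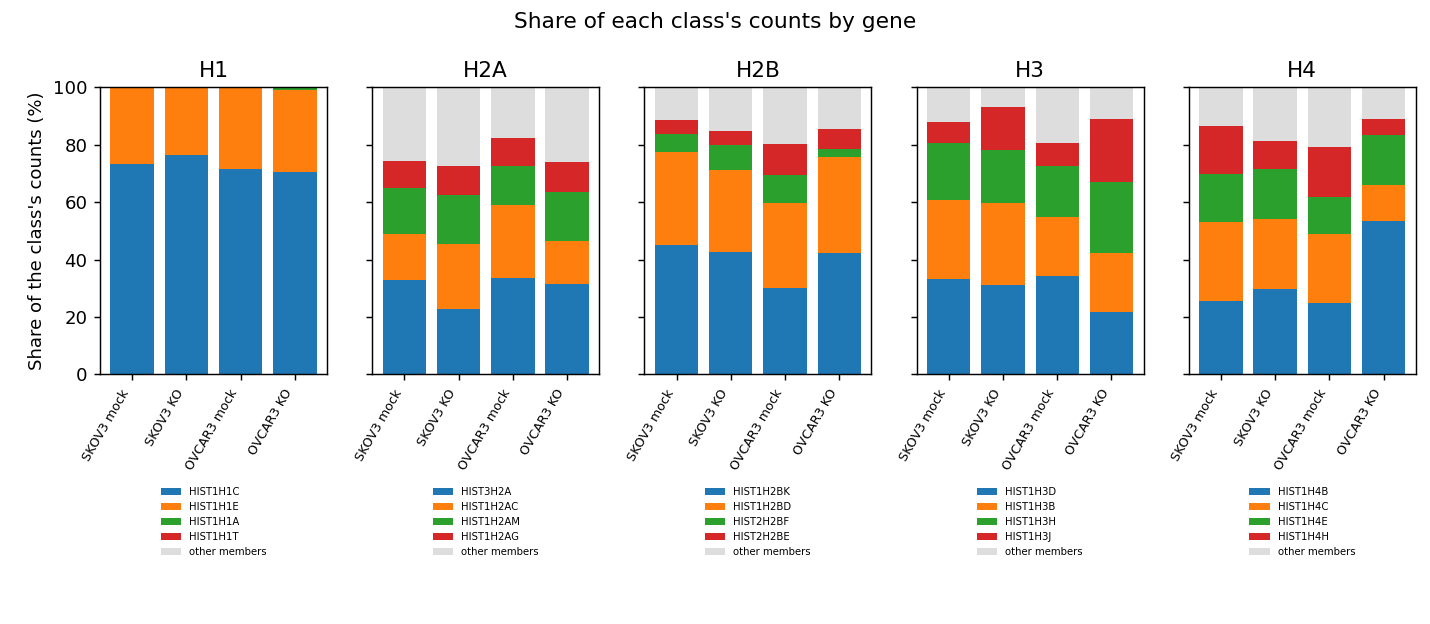
Share of each class's counts, in percent, taken by its 4 members with the most counts and by all its other members (grey), in each of the 4 libraries. The shares are of counts and are not corrected for gene length; HIST1H4B takes 53.5% of H4 counts in OVCAR3 KO against 25% to 29.7% in the other 3 libraries.

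The 3′ end of the annotated gene was set beside the OVCAR3-labelled ratios. This split was chosen after the values had been seen and is given as a description. Of the core members, the 24 with AATAAA at the end of a transcript model summed to 46.0 CPM in OVCAR3 mock and 27.2 in OVCAR3 KO, -0.76 (-0.94 to -0.58). By the size rule 6 of their 10 measured genes were lower, where over all measured genes 15.4% were lower and 22.5% higher. The 45 others summed to 47.0 and 44.3 CPM, -0.09 (-0.24 to 0.06), with 1 of 12 measured genes lower and 1 higher. Without HIST1H4B they gave -0.21 (-0.37 to -0.06). Many of these 45, HIST1H2BK among them, have models that stop at the coding end, so a signal could not be found in them. Such models are also short, so both this split and that by length partly part complete from incomplete models.
Model length split them likewise: 23 core genes with a model of 1000 bases or more gave -1.01 (-1.25 to -0.77), and 46 with shorter models gave -0.17 (-0.30 to -0.04). A list of core genes known for polyadenylated messages parted the sums little. Its 11 genes gave -0.46 (-0.62 to -0.31) and the 58 others -0.27 (-0.45 to -0.10), with overlapping intervals. Gene by gene it parted them more. By the size rule 4 of its 7 measured genes were lower and 0 higher, with a median of -1.02. Of the 15 others measured, 3 were lower and 1 higher, with a median of -0.43. In the SKOV3-labelled pair the ratios were 0.41 (0.26 to 0.56) with AATAAA and 0.40 (0.27 to 0.52) without, 0.57 (0.37 to 0.77) for long and 0.35 (0.24 to 0.46) for shorter models, and 0.31 (0.18 to 0.44) for the list and 0.50 (0.36 to 0.64) for the others. The H1 genes, the class with the lowest OVCAR3-labelled ratio, could not be placed in the split. No H1 model carries AATAAA at its end, but that of HIST1H1C, with most of the H1 counts, stops at the coding end.

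**Figure D4:**
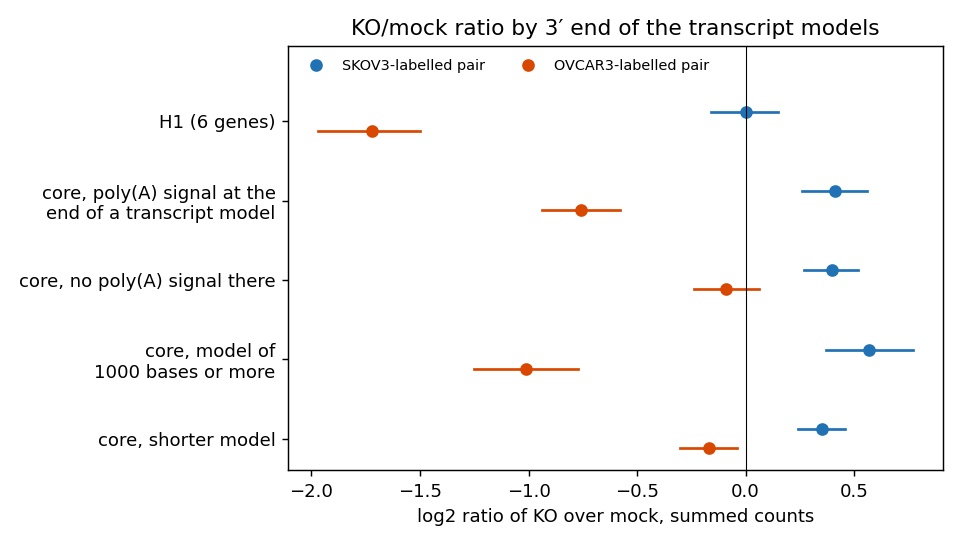
KO/mock log2 ratio of summed counts for the H1 genes and for the core histone genes split by the 3′ end of their transcript models (the AATAAA poly(A) signal in the last 50 bases, or a model of 1000 bases or more); lines are exact 95% counting intervals. In the OVCAR3-labelled pair the core genes with the signal lie at -0.76 and those without at -0.09, and H1 lies at -1.72. In the SKOV3-labelled pair all core groups lie between 0.35 and 0.57. A core gene whose model stops at the coding end counts as without the signal and as shorter.

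Neighbouring genes that share a promoter region were compared next. In 14 head-to-head pairs the start sites of an H2A or H3 gene and an H2B gene lie within 1000 bases of each other on opposite strands, and in 6 of them both genes had at least 60 counts. In none of the 6 were both genes lower by the size rule in the OVCAR3-labelled pair, and in 4 exactly 1 was. By that rule 15.4% of all measured genes and 37.5% of measured members were lower. With these shares, 6 pairs are too few to show whether neighbours go together. HIST1H2AC at -1.07 lies 219 bases from HIST1H2BC at -0.26, and HIST1H2BJ at -1.53 lies 292 bases from HIST1H2AG at -0.22. HIST2H2BE at -1.21 lies 323 bases from HIST2H2AC at -0.31, and HIST3H2BB at -1.75 lies 234 bases from HIST3H2A at -0.43 (HIST3H2BB and HIST2H2AC are named because of their neighbours). The difference between the genes of a pair was not tested, and the intervals of the single ratios are wide, -3.58 to -0.71 for HIST3H2BB and -1.54 to 0.81 for HIST2H2AC. Within each of these 4 pairs the intervals of the genes overlap, as for HIST1H2AC (-1.70 to -0.54) and HIST1H2BC (-1.06 to 0.50). All ratios named here are below 0, so the genes of a pair differ in size and not in direction.

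The region between HIST2H2AC and HIST2H2BE is shown as such a shared promoter. It is the 250 bases before the HIST2H2AC start in RefSeq (GRCh38.p14, plus strand, chr1:149886668-149886917). Capitals mark matches, on either strand, to TATAAA, to CCAAT and to the octamer ATTTGCAT, the site of the factor POU2F1 (OCT1) in H2B promoters.
HIST2H2AC promoter: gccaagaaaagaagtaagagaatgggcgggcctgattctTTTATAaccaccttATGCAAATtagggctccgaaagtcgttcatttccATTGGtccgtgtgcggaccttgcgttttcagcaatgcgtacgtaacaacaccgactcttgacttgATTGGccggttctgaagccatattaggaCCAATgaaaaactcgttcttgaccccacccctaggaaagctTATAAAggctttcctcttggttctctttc

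A RefSeq promoter of 250 bases before and 50 after the start was found for 65 of the 75 members. The octamer was in 14 of 18 H2B promoters (77.8%) and 11 of 16 H2A promoters (68.8%), many of them the same window read from its other side. It was in 1 of 12 H3 promoters, that of HIST1H3D, whose window in the table is the same as that of HIST1H2AD. It was in none of the 13 H4 or 6 H1 promoters, and in 1.77% of all 35116 promoters in the table. TATAAA was in 43 of the 65 (66.2%, against 11.5% of all promoters). CCAAT was in every H1, H2A, H2B and H3 promoter matched and in 3 of 13 H4 promoters (23.1%, against 34.6% of all). These are matches of letters and not measured binding.

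By place, the ratio of the OVCAR3-labelled pair was lowest for the HIST2 genes of chromosome 1, -1.43 (-1.84 to -1.07), and in the SKOV3-labelled pair the same genes gave 0.54 (0.23 to 0.85). The first block on chromosome 6, with 1294 counts in mock and 638 in KO, gave -0.86 with its H1 genes and -0.22 (-0.41 to -0.04) without them, close to the -0.18 (-0.37 to -0.00) of the second block. Most of the HIST2 counts belong to HIST2H2BF and HIST2H2BE.

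Replacement and unclustered histone genes are expressed outside S phase as well, and most of their messages are polyadenylated. They went in both directions in the OVCAR3-labelled pair. In the SKOV3-labelled pair 0 of 11 measured genes passed the size rule in either direction, with a median of -0.02. In the OVCAR3-labelled pair 3 of 11 were lower and 1 was higher, with a median of -0.23. Over all measured genes the shares there were 15.4% lower and 22.5% higher, and in the SKOV3-labelled pair 0.739% and 0.799%. These shares hold for the next lists too. The higher one was H2AFZ, the H2A.Z gene, at 283 and 636 CPM, 1.17 (1.12 to 1.22), and the lower ones were H1F0, H1FX and H2AFJ, the last at 12.8 and 5.23 CPM, -1.27 (-1.69 to -0.91). H3F3A and H3F3B, which encode the same H3.3 protein, gave 0.70 (0.60 to 0.80) and -0.11 (-0.14 to -0.08), and H2AFX, the H2A.X gene, gave -0.75 (-0.88 to -0.61).

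The genes that transcribe and process histone messages were nearly level in the SKOV3-labelled pair: 0 of 27 passed the size rule, with a median of 0.01. SLBP stood at 121 CPM in both SKOV3-labelled libraries and at 94.2 and 115 in the OVCAR3-labelled ones, 0.29 (0.19 to 0.39). NPAT had 32.8 and 39.7 CPM in the SKOV3-labelled pair, 0.27 (0.12 to 0.43), and 362 and 890 counts in the OVCAR3-labelled pair, 1.45 (1.28 to 1.64), the 1 gene of the list past the rule upward. The 3 past it downward were UPF1, which takes part in histone message decay, at -2.05 (-2.19 to -1.93), and SYMPK and CPSF1 at -1.47 and -1.43. LSM11, a protein of the U7 particle, gave 0.86 (0.62 to 1.11), and CASP8AP2 (FLASH), its partner in 3′ end cutting, had at most 1.65 CPM, with 0.70 (-0.12 to 1.65) and 0.77 (-0.22 to 1.97).
Histone chaperones gave 0 of 25 past the rule and a median of 0.07 in the SKOV3-labelled pair, and 2 of 25 higher, 5 lower and a median of -0.04 in the other. Replication genes of S phase were mostly above 0 in both: 34 of 39 with a median of 0.22, and 28 of 39 with a median of 0.46, against 51.1% and 56.2% of all genes. By the size rule 0 were called in the first pair, and 7 were higher and 3 lower in the second. The sum of the 4 core histone classes was above 0 in the first of these pairs (0.40) and below 0 in the second (-0.38), where H4 alone was above 0 (0.46).

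Other features of OVCAR3 KO moved with the histone differences. RNAs that mostly lack a standard poly(A) tail (NEAT1, MALAT1 and RNAs of polymerase III among them) were higher in 11 of 12 measured genes (median 2.64), with a summed level of 372 CPM in OVCAR3 mock and 3550 in OVCAR3 KO. In the SKOV3-labelled pair 2 of 10 were lower and none higher, from 1020 to 555 CPM in sum. Epithelial markers were lower in 5 of 6 genes in OVCAR3 KO, from 7610 to 2090 CPM in sum, and nearly level in the other pair (5560 and 5170). Fibroblast markers summed to 19.8 and 35.3 CPM, and leukocyte markers to 15.8 and 9.98 CPM, in OVCAR3 mock and KO. A trend on GC content and length had an r2 of 0.14 for the log2 ratios of 12543 protein-coding genes in the OVCAR3-labelled pair and of 0.0184 for 11851 in the other. The part of these in the histone ratios was not tested.

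Over both lines, with the line as a block, edgeR's quasi-likelihood test with Benjamini-Hochberg adjustment called 0 of the 24 members tested and 0 of all 13670 genes (0%) at an adjusted p of 0.05. At an unadjusted p under 0.05 it gave 0 members and 140 genes. DESeq2 and limma-voom also called 0 members, with 0 at an unadjusted p under 0.05. The smallest member value was that of HIST1H4B, a mean log2 ratio of 1.13 with an adjusted p of 0.956 (unadjusted 0.102), higher in KO in 2 of 2 lines. With a minimum of 5 CPM its unadjusted edgeR p was 0.0143 and the smallest adjusted p of any member 0.957. Each gene had 1 residual degree of freedom, and the values above remain a comparison of single libraries.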

How the data were processed

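The authors deposited 1 table per library of raw read counts per gene symbol (58173 rows), made with TopHat on GRCh38 per the submitters' processing notes. Libraries came from total RNA (NEBNext Ultra II Directional kit), per the labels' protocols. The sources used here do not give the counting tool, the annotation, the strand setting or the treatment of reads that map to several places. No member symbol stood in several rows.

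Counts were scaled by TMM (edgeR 4.0.16, R 4.3.3) over genes that reached 1 CPM in 2 or more libraries, with factors of 1.02, 1.04, 1.01 and 0.931 for SKOV3 mock, SKOV3 KO, OVCAR3 mock and OVCAR3 KO. Log2 ratios used a prior count of 2. Exact 95% intervals came from Clopper-Pearson bounds without the prior. They cover counting error only, as do floors, because PCR copies of a molecule cannot be told from separate molecules. The size rule asked for a 2-fold ratio and CPM of at least 1 in the KO or mock library. edgeR's quasi-likelihood test used all 4 libraries with the line as block, and its p-values reflect how these 4 libraries vary, which may be technical. limma 3.58.1 and DESeq2 1.42.0 were alternatives. The fits were tested on simulated counts. Sequence words, stem-loops and lengths came from GENCODE 29 transcripts, and promoters from a RefSeq table.

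The members and all gene lists were chosen with earlier results of these data known. Named members are the 20 with the most counts and, per line, the 5 largest and 5 smallest ratios among members with at least 100 counts in the pair. Named genes outside the clusters are H2AFX, H2AFZ, H3F3A, H3F3B, H1F0, H1FX, SLBP, NPAT, CASP8AP2 and LSM11, and up to 4 per list with the largest ratios where a result turns on them. Other names were chosen after their values were seen.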

Additional observations from a re-analysis of the deposited data

Results flagged for a closer look

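Several histone values had opposite directions in the 2 lines, with counting intervals on opposite sides of 0. The difference between the lines was not tested, since each group holds 1 library. As OVCAR3-labelled minus SKOV3-labelled log2 ratio, the difference was -0.98 for the sum over all members (0.29 and -0.69) and -0.78 for the 4 core classes together (0.40 and -0.38). For the H2A class it was -0.69 (0.35 and -0.34) and for the H2B class -0.97 (0.40 and -0.57). Among single members, HIST1H2AC differed by -1.87 (0.80 and -1.07) and HIST2H2BF by -3.15 (0.84 and -2.31). In both genes SKOV3 KO and OVCAR3 mock were the high libraries.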

How the results depend on the processing

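Among 15 alternatives, no class sum whose interval lay off 0 changed its direction except the H4 sum of the OVCAR3-labelled pair without HIST1H4B, and of all recomputed class sums, member medians and counts of called members 187 kept within their interval or within 1.5 times the count while 24 did not; where a value did not, the cause was not tested unless the alternative itself shows it. Other scalings shift every OVCAR3-labelled log2 ratio by -0.21 (DESeq2 size factors), -0.11 (no factor), 0.07 (TMM over protein-coding nuclear genes) or -0.29 (TMM over all rows); the last 2 were chosen after seeing the data, and no SKOV3-labelled ratio moved by more than 0.02. Under DESeq2 size factors the OVCAR3-labelled sums became -0.78 for H2B and -0.90 for all members, the latter -0.81 with no factor, and under TMM over all rows they were -2.01 for H1, -0.63 for H2A, -0.86 for H2B and -0.98 for all members. The H4 sum stayed above 0 under each scaling, from 0.18 to 0.53, but its interval then reached 0 with DESeq2 size factors, no factor or all rows. The H3 sum of that pair went from -0.32 to 0.03. Without the most abundant member of each class, the SKOV3-labelled sums were -0.17 for H1 and 0.39 for all members, and the OVCAR3-labelled ones -0.85 for H2B and -0.21 for H4. The 4 members higher in the SKOV3-labelled pair became 2 with a prior count of 5, 9 with no filter, 0 with CPM of at least 5, 11 with a fold of 1.5 and 1 with a fold of 3. The 1 higher in the OVCAR3-labelled pair became 2 without mitochondrial rows or with TMM over protein-coding nuclear genes, 0 with the GC and length trend removed or a fold of 3, 4 with no filter and 3 with a fold of 1.5; the 9 lower became 5 with CPM of at least 5 and 4 with a fold of 3. With the trend removed, the median of the OVCAR3-labelled members was -1.19 and 13 were lower, and HIST1H2BD and HIST1H2BK moved to -0.96 and -0.67 in the OVCAR3-labelled pair. No paired analysis was possible because the labels give every group the replicate number 1 only, beyond the line as block in the test over both lines, which called 0 members with and without that block. Leaving out a replicate leaves no library in a group. Depth limits most members: 42 of 75 had fewer than 20 counts in all.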
